A study of Mus musculus with 18 samples.

Results

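Cytochrome P450 enzymes of the Cyp4 family add a hydroxyl group to the last, or omega, carbon of a fatty acid. Fatty aldehyde dehydrogenase, encoded by *Aldh3a2*, oxidizes long-chain aldehydes, including those formed on the way from an omega-hydroxylated fatty acid to a dicarboxylic acid, and dicarboxylic acids are shortened further by β-oxidation in peroxisomes. PPARα is a nuclear receptor that is activated by fatty acids and binds DNA together with RXR, and Cyp4a genes are classical PPARα targets in the rodent liver. The genes described here are *Aldh3a2* and 9 Cyp4 genes, which were selected by name: *Cyp4a10*, *Cyp4a14*, *Cyp4a31*, *Cyp4b1*, *Cyp4f13*, *Cyp4f14*, *Cyp4f16*, *Cyp4f40* and *Cyp4v3*. They are 10 of the 55487 genes in the count data.

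Whole-thickness ileum of 18 C57BL6/J mice, males and females aged 8 to 13 weeks and fed chow, was sequenced with 1 library per mouse. IEC-*Ppara* mice carry a CAG-*Ppara*,-*EGFP* cassette at the *Col1a1* locus, on 1 allele in the 6 heterozygous and on both alleles in the 6 homozygous mice, that is switched on by *Villin-CreERT2*, a tamoxifen-inducible Cre active in intestinal epithelial cells. The 6 controls were, per the study's text, mice of the CAG-*Ppara*,-*EGFP* strain that lacked *Villin-CreERT2*, and how many cassette alleles each control carried is not given in the sources used here. The transgenic strain goes back to 1 clone. All mice, controls included, received tamoxifen (100 mg/kg) daily for 3 days and were collected 2 weeks after the final injection. The transgene is thus driven in epithelium only, whereas each library also holds RNA of the smooth muscle, connective tissue and immune cells of the gut wall. The genotypes were compared to ask how the omega-hydroxylation genes differ with intestinal *Ppara* expression, and in bulk tissue fewer cells of a type and less RNA per cell cannot be told apart.

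Library totals ranged from 38528522 to 50376371 counts, and levels are given as counts per 1000000 counts of a library (CPM). For *Ppara* the controls had 25.8 to 47.4 CPM, the heterozygous mice 107 to 196 CPM and the homozygous mice 184 to 279 CPM, with no control reaching the lowest IEC-*Ppara* library. These counts do not separate transgene from endogenous transcripts. The summed level of 10 enterocyte markers overlapped in range between the genotypes, with 21110 to 29818 CPM for controls, 22175 to 28738 CPM for heterozygous mice and 21810 to 28800 CPM for homozygous mice. One enterocyte marker was called, *Fabp2*, a fatty acid binding protein, which rose in homozygous mice (log2 fold change 0.94, SE 0.14, edgeR adjusted p = 0.00116). Among controls the sum of 10 smooth muscle markers ran from 682 to 6140 CPM. It ran from 852 to 4510 CPM among heterozygous and from 4157 to 9690 CPM among homozygous mice. Their log2 fold change in homozygous mice was positive for 10 of 10 (median 0.57), with 0 called by edgeR (0 at an unadjusted p under 0.05). In heterozygous mice it was negative for 10 of 10 (median -0.18), also with 0 called by edgeR. For 10 fibroblast markers the median sum was 2691 CPM in controls, 3059 CPM in heterozygous and 3448 CPM in homozygous mice. The ranges of this sum overlapped between the genotypes. The log2 fold change in homozygous mice was positive for 10 of 10, with 0 called by edgeR (1 at an unadjusted p under 0.05). In heterozygous mice it was negative for 8 of 10 (median -0.08), with 0 called by edgeR. The median sum of 6 distal intestine markers was 7162 CPM, 7367 CPM and 5186 CPM in the same order, with a negative log2 fold change in homozygous mice for 5 of 6 and 0 called by edgeR (2 at an unadjusted p under 0.05). For 11 B cell markers the sum was 27.1 to 642 CPM, 25.4 to 365 CPM and 23.6 to 113 CPM in the same order, and it was carried by controls 2 and 3, heterozygous 2 and homozygous 1. The log2 fold change in homozygous mice was negative for 11 of 11 (median -2.54), with 0 called by edgeR and 10 at an unadjusted p under 0.05. No marker of these lists was at 0 in every library. The part of the fibroblast and distal intestine markers in the differences between genotypes was not tested.

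The Cyp4 genes analysed form clusters of related copies. The gene positions and coding sequences are from the GENCODE annotation of GRCm38. *Cyp4a14* (chr4:115486200-115496142, minus strand), *Cyp4a10* (chr4:115518264-115533649, plus strand), *Cyp4a31* (chr4:115563649-115579015, plus strand) and *Cyp4b1* (chr4:115624725-115647723, minus strand) lie in this order on chromosome 4. *Cyp4f16* (chr17:32536558-32551798, plus strand), *Cyp4f40* (chr17:32658900-32676914, plus strand), *Cyp4f14* (chr17:32905070-32917342, minus strand) and *Cyp4f13* (chr17:32924688-32947402, minus strand) lie on chromosome 17. *Cyp4v3* (chr8:45304944-45333216) and *Aldh3a2* (chr11:61223417-61267464) stand alone, both on the minus strand. The feature that all Cyp4 members share is the stretch around the cysteine that holds the haem iron of a cytochrome P450. Its 30 coding bases are shown for the 9 Cyp4 genes to compare the members over a shared stretch, with the codon of the cysteine in capitals. The stretch spans an exon junction in each gene.
Cyp4a10: ttctcaggaggagccaggaacTGCattggg
Cyp4a31: ttctcaggaggagccaggaacTGCattggg
Cyp4a14: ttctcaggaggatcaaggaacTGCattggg
Cyp4b1: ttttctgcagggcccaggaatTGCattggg
Cyp4f13: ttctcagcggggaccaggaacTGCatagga
Cyp4f14: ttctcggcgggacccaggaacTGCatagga
Cyp4f16: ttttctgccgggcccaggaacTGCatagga
Cyp4f40: ttctcagcggggccaaggaacTGCattgga
Cyp4v3: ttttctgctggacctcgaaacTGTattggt

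*Cyp4a10* and *Cyp4a31* did not differ over this stretch. *Cyp4a14* differed from them at 2 bases, *Cyp4b1*, *Cyp4f13*, *Cyp4f14* and *Cyp4f40* at 6, *Cyp4f16* at 8 and *Cyp4v3* at 10. Over the whole coding sequence *Cyp4a10* was 97.2% identical to *Cyp4a32* of the same cluster and 96.6% identical to *Cyp4a31*, whereas *Cyp4a14* was at most 79.7% identical to another Cyp4 gene (*Cyp4a30b*). The closest copy of *Cyp4f16* was *Cyp4f37*, with 92.2% identity. Because the authors counted only reads that aligned uniquely and to 1 gene, the bases that separate such copies decide where a read is counted. For that reason a stretch of 60 coding bases in exon 1 is shown. No such stretch within 1 exon had more differences in whichever of *Cyp4a31* and *Cyp4a32* differed less from *Cyp4a10*. The bases that differ from *Cyp4a10* are in capitals (chr4:115518404-115518463 in *Cyp4a10*, chr4:115563799-115563858 in *Cyp4a31* and chr4:115601057-115601116 in *Cyp4a32*, all on the plus strand).
Cyp4a10: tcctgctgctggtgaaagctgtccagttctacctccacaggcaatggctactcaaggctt
Cyp4a31: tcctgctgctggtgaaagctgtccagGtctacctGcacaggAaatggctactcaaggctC
Cyp4a32: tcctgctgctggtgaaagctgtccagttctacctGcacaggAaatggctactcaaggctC

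Of the windows of 150 bases in *Cyp4a10* transcripts, 4.04% also occurred in *Cyp4a32* or *Cyp4a31*, as did 3.54% of those of *Cyp4a31* in the other copies. For *Cyp4f16* 1.60% of windows occurred in *Cyp4f37*, and for *Cyp4v3* 4.48% occurred in *Gm45753*, a gene model that overlaps it on the same strand. A read from such a window cannot be assigned to 1 gene by its own sequence. The authors sequenced both ends of each fragment, and the share of read pairs that cannot be assigned was not determined. The other members shared no such window with any annotated transcript.

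In control ileum the omega-hydroxylase genes spanned a wide range of levels, led by *Cyp4f14*, which encodes a leukotriene B4 and fatty acid omega-hydroxylase. On the scale of fragments per kilobase of gene and 1000000 fragments (FPKM), which allows genes to be compared per length, *Cyp4f14* averaged 378 ± 44.2 FPKM (SD, n = 6) in controls. It was followed by *Cyp4f40* at 58.1 ± 3.37 FPKM, *Cyp4f16* at 44.8 ± 5.47 FPKM and *Cyp4v3*, a fatty acid hydroxylase of the endoplasmic reticulum, at 43.7 ± 4.34 FPKM. Next came *Aldh3a2* at 27.8 ± 2.58 FPKM, *Cyp4b1* at 19.8 ± 1.91 FPKM, *Cyp4f13* at 15.8 ± 1.36 FPKM and *Cyp4a10* at 0.0327 ± 0.0313 FPKM. The ranges of *Cyp4f16* and *Cyp4v3* overlapped, as did those of *Cyp4b1* and *Cyp4f13*, and the other neighbours in this order had no overlap among the 6 controls. *Cyp4f14* held 67.4% ± 1.92 (SD, n = 6) of the summed FPKM of the 9 Cyp4 members in controls, 65.3% ± 1.27 in heterozygous and 63.9% ± 1.78 in homozygous mice.

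**Figure D1:**
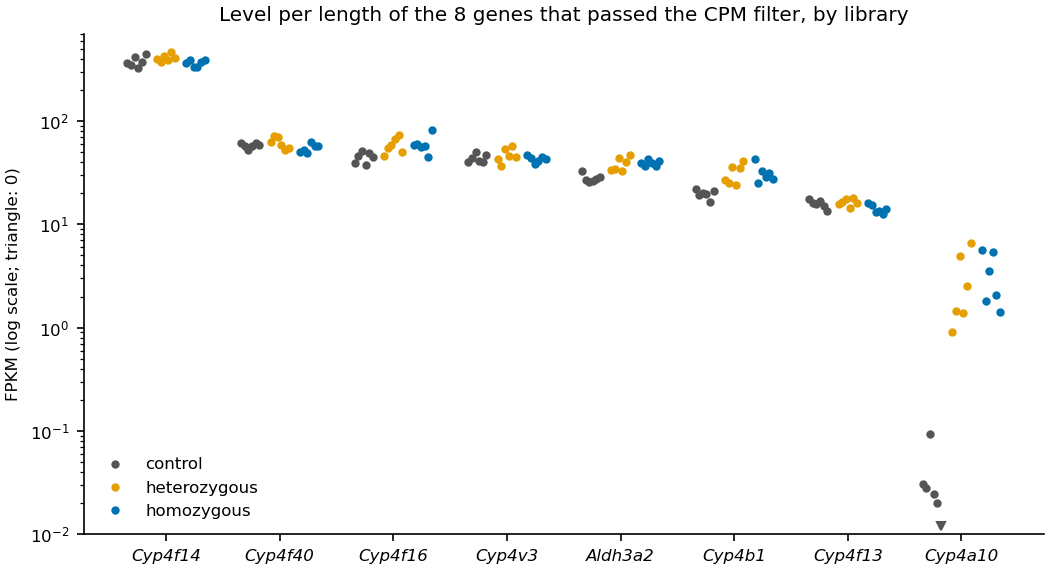
Level per length (FPKM, log axis) of the 8 genes that passed the CPM filter, in the order of their control mean, with 1 point per library coloured by genotype and a triangle for the control library with 0 counts of *Cyp4a10*. *Cyp4f14* averaged 378 FPKM in controls, and *Cyp4a10* stayed the lowest of the 8 in every genotype, at a mean of 3.32 FPKM in homozygous mice.

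*Cyp4a10* rose in both IEC-*Ppara* genotypes from close to no reads. The 6 control libraries held 3, 3, 8, 2, 2 and 0 counts of this gene, or 0.0652, 0.0596, 0.195, 0.0519, 0.0422 and 0 CPM. Heterozygous libraries were at 1.92, 3.06, 10.4, 2.89, 5.33 and 13.8 CPM. Homozygous libraries were at 12.0, 3.79, 7.41, 11.4, 4.36 and 3.02 CPM. Each IEC-*Ppara* library was thus above each control, while the ranges of the heterozygous and homozygous groups overlapped. The log2 fold change was 6.61 (SE 0.68) in homozygous mice and 6.47 (SE 0.68) in heterozygous mice against controls (edgeR quasi-likelihood test, adjusted p = 2.29e-05 and 4.75e-05). These correspond to fitted folds of 97.7 and 88.9, which were 148 and 135 without control 3, and 137 and 161 without the 4 libraries with much B cell RNA. The summed counts were 18 in control, 1642 in heterozygous and 1854 in homozygous libraries, and the 95% interval of their ratio to controls, scaled by the library totals, ran from 64.0 to 171 in homozygous and from 56.3 to 151 in heterozygous mice, for counting error only. With these increases *Cyp4a10* made up 0.588% ± 0.337 (SD, n = 6) of the summed FPKM of the 9 Cyp4 members in homozygous mice and 0.464% ± 0.356 in heterozygous mice, and it remained below *Cyp4f13* in each library.

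*Aldh3a2* was the other member that passed the test in both comparisons. Controls were at 183, 150, 143, 146, 155 and 161 CPM, heterozygous libraries at 190, 192, 246, 184, 228 and 265 CPM and homozygous libraries at 222, 206, 243, 221, 205 and 231 CPM. All 12 IEC-*Ppara* libraries were above the highest control, which the lowest heterozygous library exceeded by little. The mean was 156 ± 14.5 CPM (SD, n = 6) for controls, and it rose to 218 ± 33.7 CPM with the heterozygous and 221 ± 14.6 CPM with the homozygous genotype. The log2 fold change was 0.50 (SE 0.10) in homozygous and 0.50 (SE 0.10) in heterozygous mice (edgeR adjusted p = 0.0182 and 0.0243), or 41.5% and 41.9% more than in controls. This call was less stable than that of *Cyp4a10*. Without the 4 libraries with much B cell RNA the log2 fold changes were 0.45 and 0.50, with edgeR adjusted p = 0.269 and 0.204, and leaving out any 1 of controls 2, 3 and 4 ended both calls. The call in homozygous mice also ended without homozygous 3 or 6, and that in heterozygous mice without control 5 or heterozygous 3, 5 or 6 (highest edgeR adjusted p over single libraries left out, 0.0627 and 0.0895).

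**Figure D2:**
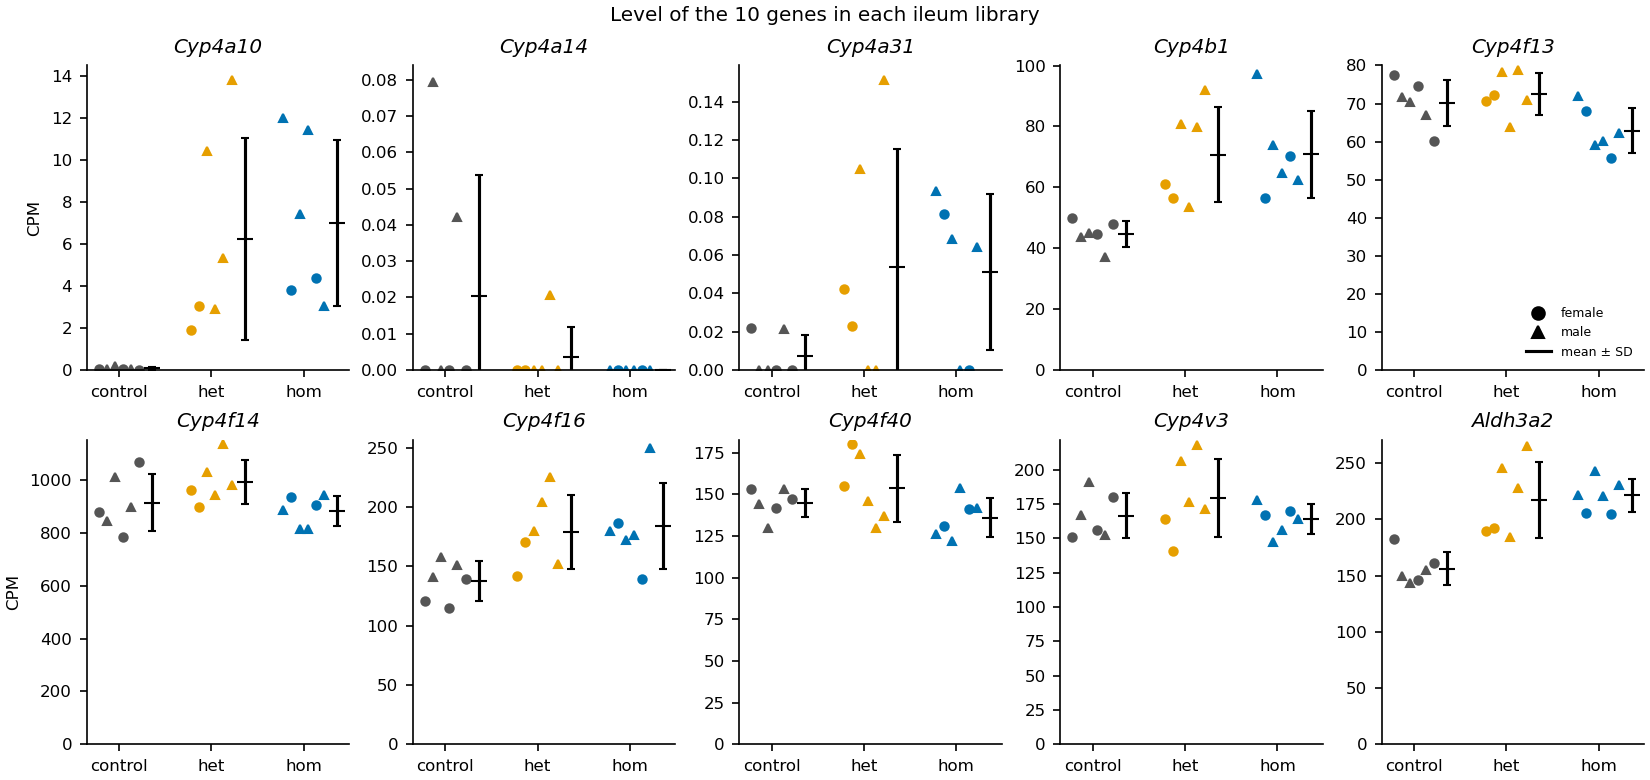
Level (CPM, linear axes from 0, each gene with its own scale) of the 10 genes in each library of control, heterozygous (het) and homozygous (hom) mice, with circles for females, triangles for males and the mean ± SD beside each group (bars end at 0 where the SD exceeds the mean). *Cyp4a10*, *Cyp4b1* and *Aldh3a2* had no overlap between controls and either IEC-*Ppara* group, whereas the ranges of the other genes overlapped.

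*Cyp4b1*, a family member that hydroxylates fatty acids and many foreign compounds, lay at the border of the threshold. It was at 49.8, 43.6, 44.9, 44.7, 37.2 and 47.8 CPM in controls, at 61.1, 56.6, 80.9, 53.6, 79.9 and 92.0 CPM in heterozygous and at 97.1, 56.6, 73.8, 64.8, 70.4 and 62.4 CPM in homozygous libraries. No IEC-*Ppara* library fell within the range of the controls. The log2 fold change was 0.66 (SE 0.15) in homozygous and 0.69 (SE 0.15) in heterozygous mice, with edgeR adjusted p = 0.0554 and 0.0519, so that it was not called in either. The call depended on the setting. In homozygous mice it was called in 4 of 10 alternatives and in 5 of 18 fits with a single library left out, with an adjusted p from 0.00195 (DESeq2's Wald test) to 0.409 (edgeR without the 4 libraries with much B cell RNA). In heterozygous mice it was called in 3 of 10 and in 5 of 18, with an adjusted p from 0.00109 (DESeq2's Wald test) to 0.171 (edgeR with a single library left out).

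Among the 8 members that passed the CPM filter, 2 were called in homozygous and 2 in heterozygous mice against controls, *Cyp4a10* and *Aldh3a2* in both comparisons and all upward. *Cyp4a10* passed the filter only through the IEC-*Ppara* libraries, since no control exceeded 0.195 CPM, so that the count is a description. Over all 12645 protein-coding genes tested, 0.372% were called higher in homozygous mice and 0.293% in heterozygous mice. *Cyp4a10*, *Cyp4b1* and *Aldh3a2* had every homozygous and every heterozygous library above every control, a pattern that 0.593% and 0.293% of tested genes showed in the respective comparison. The 2 comparisons share the control libraries. The log2 fold change was positive for 4 and negative for 4 of the 8 members in homozygous mice, and positive for 8 of 8 in heterozygous mice, where it was also positive for 6003 of all tested genes (6083 in homozygous mice).

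**Figure D3:**
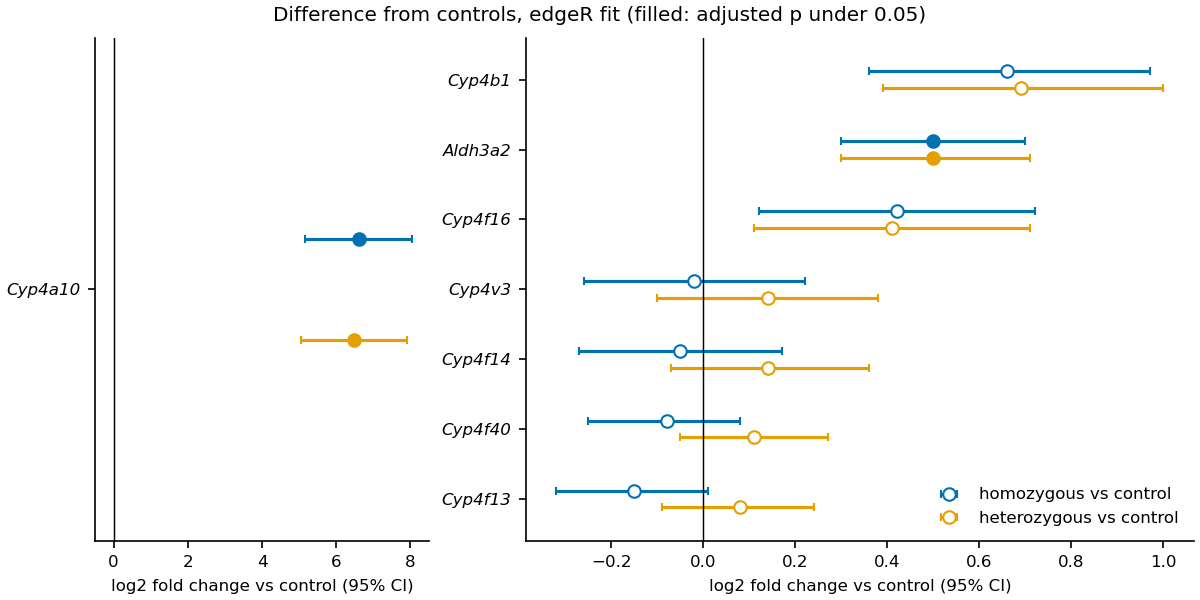
Log2 fold change against controls with its 95% confidence interval from the edgeR fit for the 8 genes that passed the CPM filter, in homozygous (blue) and heterozygous (orange) mice; *Cyp4a10* has an axis of its own, and filled points have an adjusted p under 0.05. *Cyp4a10* lay at 6.61 and 6.47 and *Aldh3a2* at 0.50 in both genotypes, while the intervals of *Cyp4f13*, *Cyp4f14*, *Cyp4f40* and *Cyp4v3* included 0.

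*Cyp4f16* had the largest difference among the Cyp4f members, without passing the test. Its levels were 121, 141, 158, 115, 151 and 139 CPM in controls, 142, 170, 180, 204, 225 and 152 CPM in heterozygous and 180, 186, 172, 176, 139 and 250 CPM in homozygous libraries. The groups overlapped. Its log2 fold change was 0.42 (SE 0.14) in homozygous and 0.41 (SE 0.14) in heterozygous mice (edgeR adjusted p = 0.399 and 0.653). Its close copy *Cyp4f37*, at 2.83 to 4.93 CPM in controls and 3.86 to 6.41 CPM in homozygous mice, had a log2 fold change of 0.39 (SE 0.17, edgeR adjusted p = 0.583).

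*Cyp4f14* and *Cyp4f40*, the 2 members with the highest level per length in controls, were not called in any comparison. *Cyp4f14* stood at 880, 846, 1012, 785, 898 and 1071 CPM in controls, at 962, 897, 1032, 943, 1137 and 984 CPM in heterozygous and at 888, 937, 814, 816, 905 and 944 CPM in homozygous libraries. Its log2 fold change was -0.05 with a 95% interval of -0.27 to 0.17 in homozygous mice, and 0.14 with an interval of -0.07 to 0.36 in heterozygous mice. *Cyp4f40* was at 153, 144, 130, 142, 153 and 147 CPM in controls, at 155, 180, 174, 146, 130 and 137 CPM in heterozygous and at 126, 131, 122, 154, 141 and 142 CPM in homozygous libraries. The interval of its log2 fold change ran from -0.25 to 0.08 in homozygous and from -0.05 to 0.27 in heterozygous mice.

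*Cyp4f13* had 77.4, 71.8, 70.4, 74.5, 67.1 and 60.2 CPM in controls, 70.6, 72.2, 78.3, 63.8, 78.9 and 70.9 CPM in heterozygous and 72, 68.0, 59.2, 60.1, 55.8 and 62.3 CPM in homozygous libraries. Its intervals were -0.32 to 0.01 in homozygous and -0.09 to 0.24 in heterozygous mice on the log2 scale. *Cyp4v3* was at 151, 167, 191, 156, 152 and 180 CPM in controls, at 164, 141, 206, 176, 218 and 171 CPM in heterozygous and at 178, 167, 147, 156, 170 and 164 CPM in homozygous libraries. Its intervals were -0.26 to 0.22 and -0.10 to 0.38. For these 4 genes no interval against controls reached below -0.32 or above 0.38 on the log2 scale.

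The remaining members, *Cyp4a14* and *Cyp4a31*, did not pass the CPM filter. *Cyp4a14*, which like *Cyp4a10* encodes an enzyme of the Cyp4a subfamily, had 4 counts in control 2, 2 counts in control 5, 1 count in heterozygous 5 and no counts in the other libraries. In the 6 homozygous libraries together 0 of 267264412 counts fell on it, which allows up to 0.0112 CPM. A two-sided exact permutation test of CPM gave p = 0.455 for homozygous and p = 0.455 for heterozygous against control libraries. The smallest p that these group sizes allow is 0.00216. With counts only in controls 2 and 5, however, the test of homozygous against control libraries could not go below 0.455. It therefore cannot decide on a difference. *Cyp4a31* had 1, 0, 0, 0, 1 and 0 counts in controls, 2, 1, 5, 0, 0 and 6 in heterozygous and 4, 4, 3, 0, 0 and 3 in homozygous libraries. The summed counts of 14 in each IEC-*Ppara* group and 2 in controls gave a ratio of 6.89 (1.58 to 62.5) for homozygous and 6.85 (1.57 to 62.1) for heterozygous mice, with 95% intervals for counting error only. The exact permutation test gave p = 0.0606 and p = 0.0866, unadjusted. Counts of *Cyp4a31* came to 0.755% of those of *Cyp4a10* in homozygous and 0.853% in heterozygous mice, and to 11.1% in controls (2 counts against 18). Whether these few counts include misassigned reads of *Cyp4a10* was not tested.

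**Figure D4:**
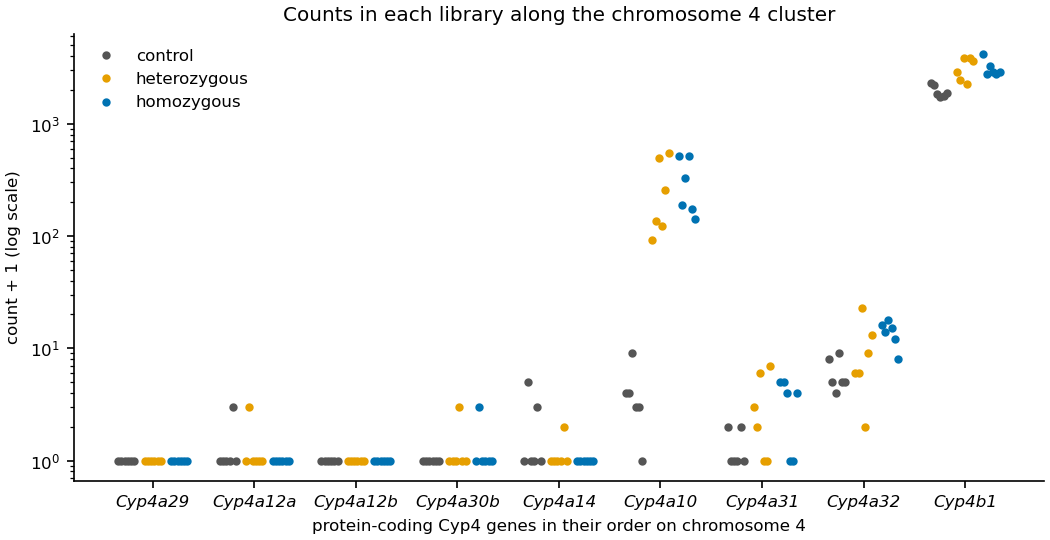
Counts plus 1 (log axis) in each library for the 9 protein-coding Cyp4a and Cyp4b genes in their order on chromosome 4, coloured by genotype. *Cyp4a10* rose from at most 8 counts in a control to between 91 and 547 counts in heterozygous and 141 and 517 counts in homozygous libraries, while *Cyp4a14* next to it had at most 4 counts in any library.

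Other genes with a Cyp4 name were inspected in the same way. Of 11 further protein-coding Cyp4 genes, 3 passed the filter (*Cyp4f17*, *Cyp4f18* and *Cyp4f37*), and none of them was called. *Cyp4a32* had 3 to 8 counts per control library, 1 to 22 per heterozygous and 7 to 17 per homozygous library, and without the filter its log2 fold change in homozygous mice was 1.30 (SE 0.51, edgeR adjusted p = 0.553). *Cyp4f17* was at 2.77 to 6.85 CPM in controls and 4.41 to 7.48 CPM in homozygous mice. *Cyp4f18* was at 4.82 to 13.1 CPM in controls, and its 3 highest libraries, controls 2 and 3 and heterozygous 2, were among the 4 with the highest sums of B cell markers. *Cyp4f15* (0.312 to 1.63 CPM), *Cyp4f39* (0.485 to 1.14 CPM) and *Cyp4x1* (0.0504 to 0.921 CPM) were low in every library. Of the 7 pseudogenes, *Cyp4b1-ps1*, *Cyp4b1-ps2* and *Cyp4f41-ps* reached 10 counts in a library, with highest levels of 0.404, 1.06 and 2.02 CPM.

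No member was called between homozygous and heterozygous mice by the direct edgeR test, nor by DESeq2's, while 0.00791% of all tested genes were called by edgeR. At an unadjusted edgeR p under 0.05 were 2 of the 8, and 7.61% of all tested genes. On the log2 scale the difference, homozygous minus heterozygous, was 0.14 for *Cyp4a10* with a 95% interval of -0.86 to 1.13. It was -0.03 for *Cyp4b1* (-0.33 to 0.28) and -0.0037 for *Aldh3a2* (-0.21 to 0.20). *Ppara* itself had a difference of 0.59 (0.23 to 0.95, edgeR adjusted p = 0.485). For *Cyp4f13* the difference was -0.23 (SE 0.08), with an unadjusted edgeR p of 0.00932 and an adjusted p of 0.595. For *Cyp4f40* it was -0.19 (SE 0.08), with an unadjusted edgeR p of 0.0220 and an adjusted p of 0.642.

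The heterozygous libraries with more *Ppara* also held more *Cyp4a10*, *Cyp4b1* and *Aldh3a2*, a relation that did not pass correction. Over the 6 heterozygous libraries, Pearson's r with *Ppara* on log2 CPM was 0.907 for *Cyp4a10*, 0.944 for *Cyp4b1* and 0.948 for *Aldh3a2* (exact permutation p = 0.0208, 0.0167 and 0.0139). For the other members r was 0.563 (*Cyp4f14*), 0.540 (*Cyp4f13*), 0.435 (*Cyp4v3*), 0.0681 (*Cyp4f16*) and -0.421 (*Cyp4f40*), with an exact permutation p of 0.253 or more. For *Cyp4a10*, *Cyp4b1* and *Aldh3a2* Spearman's rho was 0.943, 0.771 and 0.886 (exact permutation p = 0.0167, 0.103 and 0.0333). After Benjamini-Hochberg adjustment over 24 relations, 8 members in 3 genotypes, the permutation p was 0.167 for each of the 3 values of r, and for rho it was 0.400, 0.617 and 0.400. Leaving out the pair of libraries whose *Ppara* lay farthest from its median, r was 0.758, 0.961 and 0.900. Of all tested genes, 0.237%, 0.111% and 0.0949% had an r with *Ppara* at least as high in these libraries. In the 6 homozygous libraries r was -0.252, 0.159 and -0.403 for the same genes, and in the 6 controls it was -0.374, 0.650 and 0.0407. No difference between the genotypes in r was tested. The 4 male heterozygous libraries include the 3 with the most *Ppara*.

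**Figure D5:**
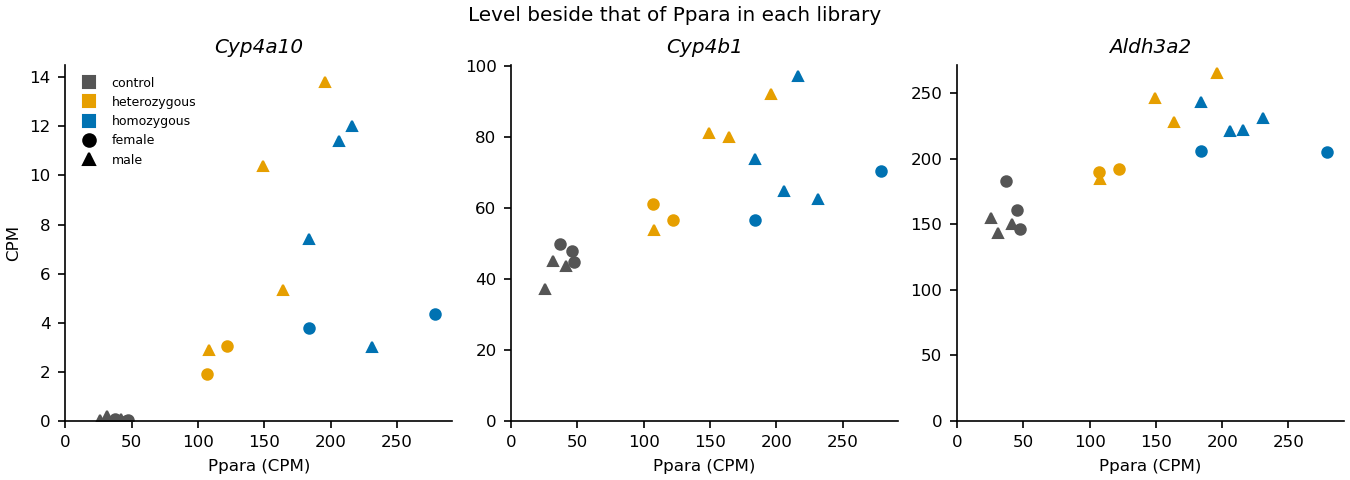
Level of *Cyp4a10*, *Cyp4b1* and *Aldh3a2* (CPM) beside that of *Ppara* (CPM) in each library, coloured by genotype, with circles for females and triangles for males. In heterozygous mice (orange) the 3 genes were higher where *Ppara* was higher, with r from 0.907 to 0.948 on the log2 scale, which did not pass correction. In homozygous mice (blue) r lay between -0.403 and 0.159, and in controls between -0.374 and 0.65. No difference in r between the genotypes was tested.

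Males and females were compared in a model with genotype, since 3 controls and 2 mice of each IEC-*Ppara* group were female. No member was called by edgeR or DESeq2, against 0.0554% of all tested genes, and 2 of 8 had an unadjusted edgeR p under 0.05, against 3.39% of all tested genes. *Cyp4a10* had the largest difference, with a log2 fold change of 1.33 (SE 0.40) in males over females (edgeR), an unadjusted edgeR p of 0.0041 and an adjusted p of 0.998. Its mean was 8.10 CPM in 4 male and 2.49 CPM in 2 female heterozygous mice, and 8.47 CPM in 4 male and 4.07 CPM in 2 female homozygous mice. The difference from controls was present within each sex. The lowest female IEC-*Ppara* library had 1.92 CPM and the highest female control 0.0652 CPM, while among males these were 2.89 CPM and 0.195 CPM. *Aldh3a2* had 146 to 183 CPM in female controls, against 190 to 192 CPM in female heterozygous mice and 205 to 206 CPM in female homozygous mice. In males the ranges were 143 to 155 CPM, 184 to 265 CPM and 221 to 243 CPM in the same order. *Cyp4b1* in both sexes likewise had no overlap between controls (44.7 to 49.8 CPM in females and 37.2 to 44.9 CPM in males) and IEC-*Ppara* mice (at least 56.6 CPM in females and 53.6 CPM in males). With sex as a covariate, the edgeR adjusted p of *Aldh3a2* was 0.0345 in homozygous and 0.0514 in heterozygous mice.

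Omega-hydroxylation needs electrons, delivered to cytochrome P450 enzymes by cytochrome P450 oxidoreductase (*Por*) and cytochrome b5, and alcohol and aldehyde dehydrogenases that oxidize the product. Of 14 genes listed for these steps 11 passed the filter and none was called in either comparison, with 3 at an unadjusted edgeR p under 0.05 in homozygous and 2 in heterozygous mice, beside 8.06% and 5.29% of all tested genes. DESeq2's Wald test called 0 of them in either comparison as well. The median log2 fold change was 0.07 in homozygous and 0.11 in heterozygous mice. *Por* averaged 200 ± 21.8 CPM (SD, n = 6) in controls, 267 ± 54.2 CPM in heterozygous and 253 ± 23.8 CPM in homozygous mice, and its log2 fold change was 0.34 and 0.45 in homozygous and heterozygous mice (SE 0.13 for each, edgeR adjusted p = 0.458 and 0.282). The next largest values in homozygous mice were 0.29 (SE 0.09) for *Aldh1a1*, a retinaldehyde dehydrogenase, 0.26 (SE 0.12) for *Aldh3b1*, another medium- and long-chain aldehyde dehydrogenase, and -0.20 (SE 0.10) for the mitochondrial *Aldh1b1*. In heterozygous mice *Adh1*, an alcohol dehydrogenase, was at 0.24 (SE 0.14), *Aldh1a1* at 0.22 (SE 0.09) and *Aldh9a1* at 0.13 (SE 0.08).

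A list of genes for the peroxisomal breakdown of dicarboxylic acids included some that rose in IEC-*Ppara* mice. The list is not limited to genes particular to dicarboxylic acids. Of 20 listed genes 18 passed the filter, and 3 were called in homozygous and 2 in heterozygous mice, all upward, with a positive log2 fold change in 17 and 18 of the 18, while over all tested genes 0.372% and 0.293% were called higher. The median log2 fold change was 0.27 and 0.31, beside a median of -0.0048 and -0.0058 over all tested genes. *Acaa1b*, a peroxisomal thiolase, had a mean of 11.1 ± 6.96 CPM (SD, n = 6) for controls and rose to 45.4 ± 15.0 CPM for heterozygous and 56.1 ± 15.6 CPM for homozygous mice (log2 fold change 2.08 and 2.35, edgeR adjusted p = 0.00509 and 0.00104). *Hsd17b4*, the D-bifunctional protein of the peroxisome, rose by a log2 fold change of 0.59 in heterozygous and 0.65 in homozygous mice (SE 0.10, edgeR adjusted p = 0.0074 and 0.00166). *Decr2*, a peroxisomal dienoyl-CoA reductase, rose in homozygous mice (0.39, SE 0.07, edgeR adjusted p = 0.00993). *Crot*, *Ehhadh* and *Abcd3* were among the largest differences without being called. *Crot*, a carnitine octanoyltransferase, had 0.50 in homozygous mice (edgeR adjusted p = 0.0549). *Ehhadh*, the L-bifunctional enzyme that acts on dicarboxylic acids, had 0.52 in heterozygous mice (edgeR adjusted p = 0.143). *Abcd3*, a peroxisomal fatty acid transporter, had 0.48 in heterozygous and 0.43 in homozygous mice (edgeR adjusted p = 0.0963 and 0.14). The count was 5 in homozygous mice without control 1 or control 6, and in heterozygous mice 4 without control 1 and 5 without heterozygous 4. Without the 4 libraries with much B cell RNA, 0 of the 18 were called in either comparison by edgeR.

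The genes whose level was most like that of each of the leading members over the 18 libraries were found by Pearson's r of log2 CPM, given as a description because the libraries share genotypes and tissue make-up. For *Cyp4a10* they included *Fabp1* (0.978), which encodes a fatty acid binding protein, *Cyp2c66* (0.973), *Aqp3* (0.955) and *Cyp2c65* (0.953). For *Aldh3a2* they were *Hsd17b4* (0.944), *Cyp2c66* (0.934), *Abcd3* (0.933), *Acot12* (0.932) and *Cyp2c65* (0.927). For *Cyp4b1* they were *Scp2* (0.915), *Retsat* (0.910), *Aldh3a2* (0.898), *Cyp2c65* (0.891) and *Hsd17b11* (0.890). *Cyp4a10* had an r of 0.890 with *Aldh3a2* and 0.877 with *Cyp4b1*.

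PPARα and RXR bind a direct repeat of AGGTCA with 1 base between the copies, which was searched in the promoters of the members, taken from RefSeq (GRCm38.p6) as the 250 bases before and 50 bases after each start. Promoters of 7 of the 10 members were matched, those of *Cyp4b1*, *Cyp4v3*, *Aldh3a2*, *Cyp4f13*, *Cyp4f14*, *Cyp4f16* and *Cyp4f40*. None was matched for *Cyp4a10*, *Cyp4a14* or *Cyp4a31*, so that the member with the largest rise was not searched. Sequence farther from the start was not searched for any gene. The half-site AGGTCA was in none of the matched promoters on either strand, at any listed start of these genes. Of 27025 promoters, 1 per gene, 16.0% held it. With 7 members the absence is a description and cannot show a difference from that share. A repeat with at most 2 mismatches over both half-sites was present in the promoter of *Cyp4f16* only, and in 3.81% of all promoters. The window of *Cyp4f16* (chr17:32536376-32536388, read on the minus strand) is shown, with the bases compared with the half-sites in capitals. Beside it are the closest windows of *Aldh3a2* (chr11:61267235-61267247) and *Cyp4v3* (chr8:45333308-45333320), both read on the strand of the gene. These 2 have 3 mismatches, and the share of all promoters with such a window was not determined. Binding to any of these windows was not tested.
Cyp4f16: AGGGCAaAGGTGA
Aldh3a2: AGATTAgAGGTAA
Cyp4v3: ACTTCAgAGCTCA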

How the data were processed

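Ileum of 6 control, 6 heterozygous and 6 homozygous IEC-*Ppara* mice was analysed, grouped by the genotype in the labels. The authors selected poly-A RNA, aligned reads with STAR to GRCm38 (Ensembl) and counted uniquely aligned, unambiguous reads per gene with featureCounts; these deposited counts carry no normalization. Deposited CPM are counts divided by the library total, and deposited FPKM are also divided by gene length. Protein-coding genes with over 3 CPM in at least 4 libraries (12645 of 13709 passing) were compared with edgeR 4.0.16 in R 4.3.3 (quasi-likelihood test, TMM, all 18 libraries in 1 fit, no covariates), with Benjamini-Hochberg adjustment over all tested genes and calls at 0.05. Sex was tested with genotype as a covariate. The 2 members below the filter were compared by exact permutation tests. Log2 CPM used a prior count of 2. The fit was tested on simulated data. Intervals of edgeR fold changes include the spread between mice, whereas those of count ratios and limits from 0 counts cover counting error only, since the reads carry no molecular identifiers. The members and gene lists were chosen with earlier results of these data known. All members were named; listed genes were named if called or among the 4 largest differences of a pathway list, other Cyp4 genes from 10 counts in a library, and the 5 genes most like each of *Cyp4a10*, *Aldh3a2* and *Cyp4b1*, of which 1 is not reported here. Alternatives were DESeq2 1.42.0, its size factors, no filter, only the 12 libraries compared, sex, smooth muscle and B cell scores as covariates, a replicate block and libraries left out.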

Additional observations from a re-analysis of the deposited data

Results flagged for a closer look

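In control 3 *Cyp4a10* was at 0.195 CPM (8 counts), far from the other controls: the gap to the next library was 0.666 of the range of the group, above the critical value of 0.625 for 6 samples. It lay below the lowest IEC-*Ppara* library, at 1.92 CPM. In heterozygous 5 *Cyp4a14* was at 0.0208 CPM, which is 1 count, while the other 5 heterozygous libraries had 0. Chance marks about 1 in 20 groups of continuous values in this way, and 30 groups were examined. That rate does not apply to *Cyp4a14*, where a single count beside zeros always stands apart.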

How the results depend on the processing

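The call of *Cyp4a10* against controls held in both genotypes under every alternative run, with a log2 fold change of 6.38 to 7.21 in homozygous and 6.08 to 7.33 in heterozygous mice. The count of members called against controls was 1 in place of 2 with the B cell score as a covariate (homozygous), with only the 12 libraries compared or sex as a covariate (heterozygous), and without the 4 libraries with much B cell RNA (both); with single libraries left out it ran from 1 to 3. In each case of 1, *Aldh3a2* was the member lost. The cause was not tested. The replicate block left the count at 2 in both comparisons, while over all tested genes it gave 49 calls in homozygous and 22 in heterozygous mice, in place of 52 and 37. Replicate numbers showed no pairing of the samples by correlation. The correlation of same-numbered libraries ran from -0.61 to 0.64, and for each of the 3 pairings of genotypes a library was closest to its own number in 0 of 6 pairs. The study used littermates, but the labels do not give the litters, and a part of litter was not tested. DESeq2's Wald test called 136 and 80 of all tested genes and 7 and 8 of the 18 peroxisomal genes in these comparisons, and the edgeR fit without the 4 libraries called 31 and 15 of all tested genes. The peroxisomal count was also 5 in homozygous mice with the smooth muscle score, and 1 in heterozygous mice with only the 12 libraries compared or the replicate block. The count was 3 in both comparisons, with *Cyp4b1* called as well, by DESeq2's Wald test (adjusted p = 0.00195 and 0.00109), with the smooth muscle score (edgeR adjusted p = 0.0350 and 0.0482) and over all gene types, an alternative chosen after seeing the data (edgeR adjusted p = 0.0463 and 0.0470), and in homozygous mice with only the 12 libraries compared (edgeR adjusted p = 0.0239). On log2 CPM the exact permutation p for homozygous against control libraries was 0.0390 for *Cyp4a14* and 0.0455 for *Cyp4a31*. With the prior count, libraries with 0 counts differ on this scale by their totals. *Cyp4a14* had 0 counts in 4 controls and all 6 homozygous libraries, so that its p of 0.0390 cannot decide on a difference in expression. *Cyp4a31* had 0 counts in 4 controls and 2 homozygous libraries. Its difference between homozygous and heterozygous libraries changed sign (exact permutation p = 0.866).

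Signs changed only among log2 fold changes that were not called. Against controls in homozygous mice, *Cyp4f14* and *Cyp4v3* were at 0.06 and 0.09 with the smooth muscle score, *Cyp4v3* at 0.01 without the 4 libraries, and both at up to 0.03 with single libraries left out (from -0.10 and -0.05). For homozygous against heterozygous mice, without the 4 libraries *Cyp4a10* was at -0.23 and *Cyp4f16* at -0.01. With the smooth muscle score *Cyp4b1* and *Aldh3a2* were at 0.06, with the replicate block *Aldh3a2* was at 0.01, and without the filter *Cyp4f16* was at -0.00017. Leaving out single libraries gave -0.09 to 0.52 for *Cyp4a10*, -0.14 to 0.05 for *Cyp4b1*, -0.11 to 0.11 for *Cyp4f16* and -0.05 to 0.05 for *Aldh3a2*. For males against females, without the 4 libraries *Cyp4f13*, *Cyp4f14* and *Cyp4v3* were at -0.05, -0.06 and -0.05, *Cyp4f14* was at -0.03 with the replicate block and *Cyp4f13* at -0.00017 without the filter. Leaving out single libraries gave -0.03 to 0.05 for *Cyp4f13* and -0.04 to 0.06 for *Cyp4f14*. Depth limits the values of *Cyp4a14* and *Cyp4a31*, with at most 6 counts in a library.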
